A study of Rattus norvegicus with 12 samples.

Results

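Collagens are the fibre- and sheet-forming proteins of the extracellular matrix, and the transcripts of this gene family were followed here across 12 two-colour Agilent microarrays of rat prostate. Members were the probes whose gene name on the array reads Col, a number, the letter a and a number. They were 52 probes of 32 collagen genes, out of 41012 probes. The same name pattern also takes 2 probes of Col4a3bp, which encodes a ceramide transfer protein and no collagen, and these are kept apart below. Tested were probes with a Cy5 signal that the scanner software called well above background on 3 or more arrays of 12, which held for 48 probes of 30 collagen genes. All 10 fibrillar genes, all 4 type IV (basement membrane) genes and 16 of 18 genes of other types passed, while Col12a1 and Col17a1 did not. Of the 32 genes, 28 had a probe above background on all 12 arrays, and no collagen probe was saturated. Col6a4 and Col20a1 lie on the array under other names and are not among the members.

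Each of 4 groups held 3 arrays: partial bladder outlet obstruction with Eviprostat, obstruction with vehicle, sham operation with Eviprostat, and sham operation with vehicle. Rats were males of 10 weeks. Obstruction was made by a rubber ring closed around the urethra next to the bladder. Eviprostat, a plant-based medicine given in benign prostatic hyperplasia, was dosed at 18 mg/kg, or 36 mg/kg daily, for 5 days. The vehicle was 0.1% Tween 80, and tissue was taken 2 h after the last dose. Dosing began the day after surgery in obstructed rats and 5 days after it in sham rats, so obstruction and time since surgery cannot be told apart. The labels number the 3 arrays of a group as biological replicates, while their labelling protocol speaks of pooled prostate tissue for each group of 5 or 6 animals. Whether the arrays hold separate animals is thus not settled, and p-values measure the spread between these arrays, which may be technical. Cy5 carried the RNA of the group and Cy3 carried sham/vehicle RNA on every array, without a dye swap. A value below is the log2 ratio of Cy5 to Cy3, and a difference is taken between group means of these ratios. Each slide carried 1 array of every group in a fixed order, and the place on the slide and the group cannot be told apart.

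Collagen chains are made in the endoplasmic reticulum, where they are hydroxylated and wound into a helix, then secreted, trimmed at their ends and crosslinked. Fibrillar chains (types I, II, III, V, XI and XXVII) build the tensile fibrils of stroma, tendon or cartilage, and in glands they come mainly from fibroblasts and myofibroblasts. Type IV chains form the network of basement membranes under epithelium and around vessels and smooth muscle. Types VI and VIII form filaments and networks of their own, types IX, XII, XIV, XVI and XXII sit on fibrils, types XV and XVIII lie in basement membrane zones, and types XVII and XXIII span the cell membrane.

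The probes shown first are those whose letters say which part of a collagen transcript was read. The array reads Col1a1 with 3 probes at the end of the transcript on chromosome 10 of build rn3. The coding probe lies at chr10:83652273-83652332 and overlaps by 7 bases the probe at chr10:83652326-83652385, which ends in the stop codon. The third and brightest probe lies 161 bases past the stop codon, at chr10:83652547-83652606. The coding probe of Col1a1 shares the letters CCCATCATNGAT (N is any base; the longest stretch of these probes with at most 1 differing base) with the probe of Col3a1 (chr9:44318879-44318938) and with 1 of 3 probes of Col5a2 (chr9:44376974-44377033, on the minus strand). Of 41012 probes on the array only these 3 hold the 12 letters on the probe strand. The letters lie in the C-terminal propeptide, the part of a fibrillar chain that pairs the chains before the helix forms. Capitals mark these letters, or the stop codon, in the 5′ to 3′ probe sequences.
Col1a1, coding: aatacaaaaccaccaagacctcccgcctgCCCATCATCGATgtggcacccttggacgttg
Col3a1: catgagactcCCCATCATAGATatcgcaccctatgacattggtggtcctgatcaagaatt
Col5a2: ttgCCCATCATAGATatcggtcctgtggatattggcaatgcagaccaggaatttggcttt
Col1a1, stop codon: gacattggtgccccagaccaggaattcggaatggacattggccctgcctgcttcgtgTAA

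Col4a1 has 2 probes at opposite ends of the gene, shown because they gave different results. The first lies at chr16:83031262-83031321 and the last at chr16:83143399-83143458 in rn3, with 112077 bases between them. Capitals mark the stop codon.
Col4a1, first: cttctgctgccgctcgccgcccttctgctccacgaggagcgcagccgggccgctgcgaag
Col4a1, last: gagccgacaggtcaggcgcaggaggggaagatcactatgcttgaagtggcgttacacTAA
Col4a1 and Col4a2, whose chains assemble together, are transcribed away from each other, with 76 bases between their first bases in the RefSeq annotation of GRCr8. These bases (chr16:84885521-84885596) hold the GC box GGGCGG 1 time, on the minus strand, shown in capitals, and hold neither CCAAT nor TATAAA on either strand.
Col4a2 to Col4a1: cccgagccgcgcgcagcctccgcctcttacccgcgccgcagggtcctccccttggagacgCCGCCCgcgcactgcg
GGGCGG was present on either strand in 18.1% of 33469 windows of the same length taken upstream of annotated starts, CCAAT in 13.0% and TATAAA in 4.61%. The presence or absence of these motifs is a description of letters alone.

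Between 70.9% and 88.4% of spots per array were above background in Cy5, and slide 1 was the dimmest in all 4 groups. On the sham/vehicle arrays both colours held sham/vehicle RNA, so their ratios show the spread without a group difference. This spread may include differences between animals. The 48 collagen probes lay between -0.31 and 0.31 on sham/vehicle replicate 2 and between -0.31 and 0.21 on replicate 3. On replicate 1 they ran from -0.75 (Col15a1) to 0.82 (the coding probe of Col1a1) although both colours held RNA of the same group. Markers of the prostate's secretory epithelium were present: all 8 had a tested probe, Pbsn (probasin) was above background on 11 arrays and Acp3 on 3, and the other 6 were above it on all 12.

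Obstruction was compared with sham operation under vehicle to ask which collagen transcripts differ in the obstructed prostate. The fibrillar chains of types I, III and V were all higher in obstructed rats, 6 of 10 fibrillar genes, from 2.30-fold for Col5a3 to 8.40-fold for Col1a1 on its brightest probe. Among other types Col6a1, Col8a1, Col15a1, Col16a1 and Col18a1 rose, each between 2.11- and 2.55-fold, and no type IV gene rose by its brightest probe. In all, 11 of 30 collagen genes were higher and 0 lower in limma with Benjamini-Hochberg adjustment over all 36102 tested probes, and at an unadjusted p under 0.05 the counts were 15 higher and 1 lower, against 2437 higher and 1711 lower of all named genes. Of the 14537 named genes tested, 15.1% were called, 9.88% as higher and 5.19% as lower. The median difference was 0.27 over the collagen genes (1.30 fibrillar, 0.16 basement membrane, 0.30 other) and 0.00 over all genes. Array ranges of the 2 groups did not overlap for 16 of 30 collagen genes, against 28.4% of all genes. With the log ratio of the scanner software in place of loess, 13 collagen genes were higher and 4 lower (Col4a4, Col8a2, Col11a2 and Col23a1). Of all 36102 tested probes that log ratio called 5930 higher and 8553 lower, with a median difference of -0.098.

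Type I collagen, the main fibril protein of stroma, is built from Col1a1 and Col1a2 chains. The brightest Col1a1 probe had log2 ratios of 0.85, 0.40 and 0.31 on the obstruction/Eviprostat arrays, 3.40, 2.65 and 2.93 on the obstruction/vehicle arrays, 1.08, 0.67 and 0.65 on the sham/Eviprostat arrays, and -0.09, -0.04 and -0.09 on the sham/vehicle arrays. All 3 obstruction/vehicle arrays stood far above the other 9, and the sham/Eviprostat arrays stood above the sham/vehicle arrays. Obstruction/vehicle exceeded sham/vehicle by 3.07 ± 0.19 (log2, SE, limma adjusted p = 8.92e-07). Its mean Cy3 spot intensity, from sham/vehicle RNA, lay between 2625 and 3760 on the 12 arrays.

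The Col1a1 stop codon probe had 0.07, 0.08 and 0.08 on the obstruction/Eviprostat arrays, 1.30, 1.61 and 1.88 on the obstruction/vehicle arrays, -0.05, 0.28 and 0.23 on the sham/Eviprostat arrays, and -0.30, -0.05 and -0.02 on the sham/vehicle arrays. Here too the obstruction/vehicle arrays were apart from all others, by 1.71 ± 0.14 over sham/vehicle (adjusted p = 8.47e-06). The coding probe had 0.80, 0.10 and 0.04 on the obstruction/Eviprostat arrays, 2.31, 1.42 and 1.62 on the obstruction/vehicle arrays, 0.90, 0.15 and 0.13 on the sham/Eviprostat arrays, and 0.82, 0.05 and -0.04 on the sham/vehicle arrays. Replicate 1, on slide 1, was the highest of this probe in every group, and the difference to sham/vehicle was 1.51 ± 0.31 (adjusted p = 0.00757). The 3 probes of Col1a1 thus gave one direction with sizes of 8.40-, 3.28- and 2.84-fold, the highest on the probe past the stop codon. The stop codon probe's mean Cy3 spot intensity was 1940, 2121 and 2265 on the obstruction/vehicle arrays and 1383.7 to 1805.5 on the others. For the coding probe it was 1182.6, 1330.1 and 1390.5 against 1036 to 1209.2. A higher Cy3 value lowers the ratio, and its part in these sizes was not tested.

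**Figure D1:**
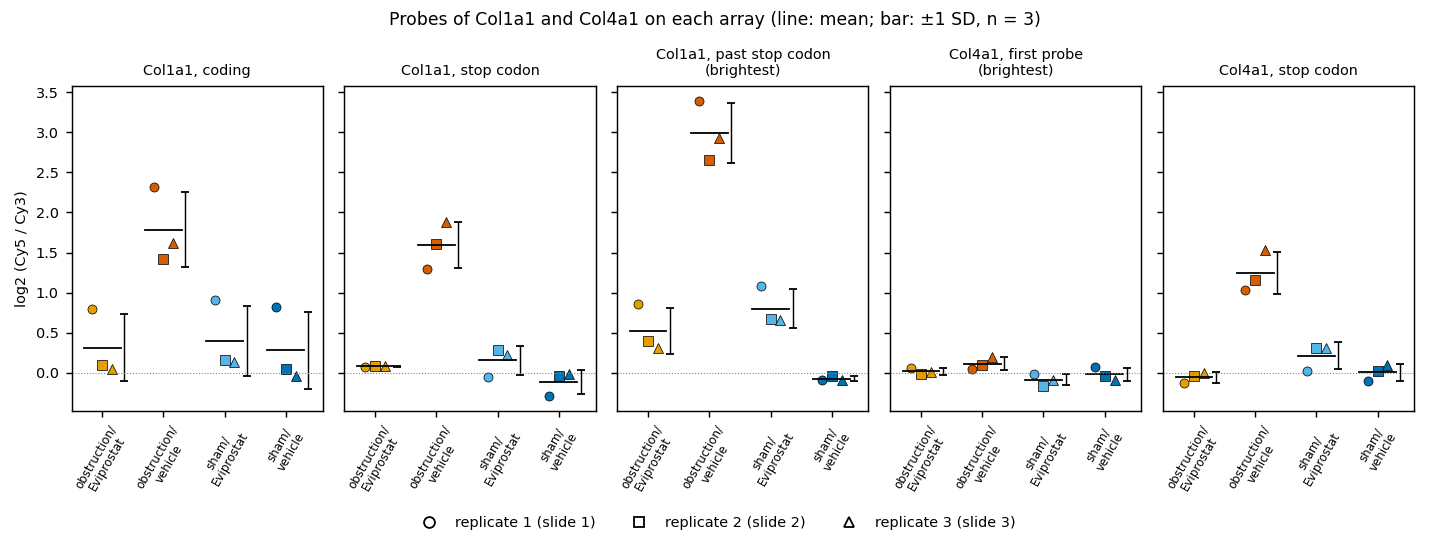
Log2 ratio of Cy5 to Cy3 on each array (vertical axis) for 3 probes of Col1a1 and 2 of Col4a1, by group, with the mean (line) and SD (bar, n = 3). The obstruction/vehicle arrays are highest on every probe except the first probe of Col4a1, where all arrays lie between -0.16 and 0.20.

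Col1a2, on its brightest probe, had 0.0006, 0.27 and 0.25 on the obstruction/Eviprostat arrays, 1.86, 1.93 and 2.23 on the obstruction/vehicle arrays, 0.43, 0.63 and 0.66 on the sham/Eviprostat arrays, and -0.12, -0.04 and -0.0007 on the sham/vehicle arrays. Its replicates lay close together, and obstruction/vehicle was 2.06 ± 0.12 above sham/vehicle (4.18-fold, adjusted p = 3.96e-07). Col3a1, the chain of type III collagen that runs with type I in pliable tissue, had 0.35, 0.46 and 0.51 on the obstruction/Eviprostat arrays, 2.14, 2.48 and 2.86 on the obstruction/vehicle arrays, 0.18, 0.67 and 0.73 on the sham/Eviprostat arrays, and -0.48, 0.04 and 0.03 on the sham/vehicle arrays. Obstruction/vehicle exceeded sham/vehicle by 2.63 ± 0.20 (6.20-fold, adjusted p = 4.11e-06).

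Type V collagen lies inside type I fibrils and limits their width. All 3 of its chains rose: Col5a2 by 1.83 ± 0.13 (adjusted p = 3.42e-06), Col5a1 by 1.41 ± 0.30 (adjusted p = 0.00936) and Col5a3 by 1.20 ± 0.24 (adjusted p = 0.00655). The 3 probes of Col5a2 gave 1.83, 1.72 and 1.76, and both probes of Col5a1 gave 1.41 and 1.37. The Col5a2 probes with 1.83 (chr9:44376894-44376953) and 1.72 (chr9:44376914-44376973) overlap, and the third adjoins them. They are thus not independent reads of the gene. Col5a2 and Col3a1 are neighbours on chromosome 9, with 57955 bases between their brightest probes in rn3. Without sham/vehicle replicate 3 the Col5a1 difference was 1.25 and no longer passed (adjusted p = 0.0511). The other 4 fibrillar genes, Col2a1, Col11a1, Col11a2 and Col27a1, had differences between -0.19 and 0.10 and adjusted p of 0.74 or more. Col2a1, Col11a1 and Col11a2 belong, with Col9a1, Col9a2, Col9a3 and Col10a1, to the collagens known from cartilage, a group picked after their values were seen. These 7 genes had differences of -0.19 to 0.31.

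**Figure D2:**
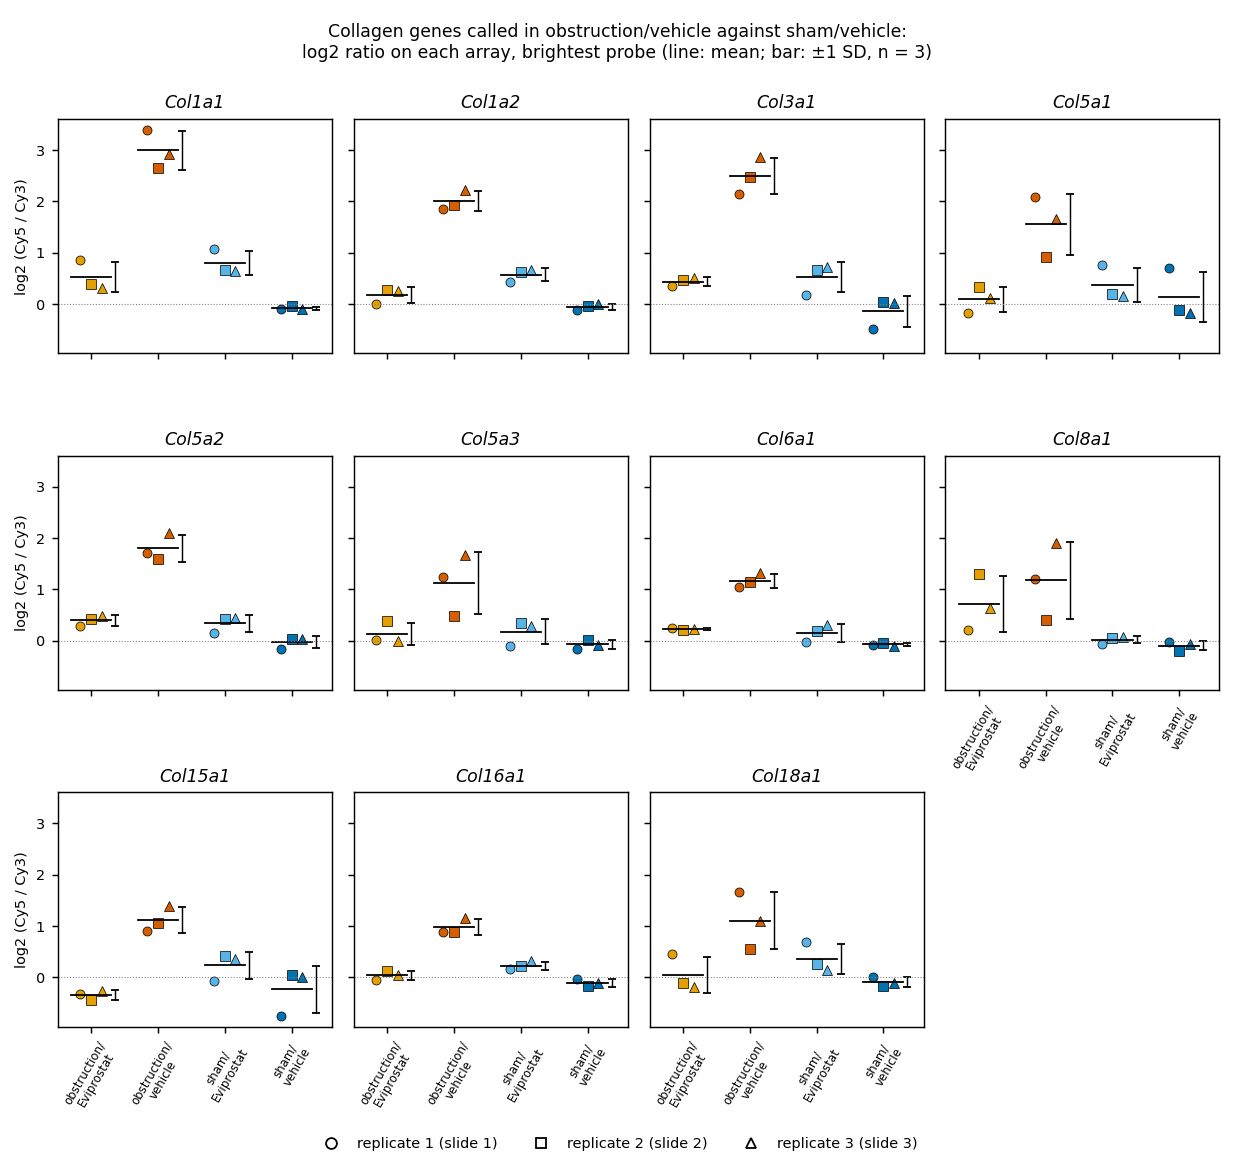
Log2 ratio of Cy5 to Cy3 (vertical axis) on each array for the 11 collagen genes called in obstruction/vehicle against sham/vehicle, brightest probe, with group mean (line) and SD (bar, n = 3). The obstruction/vehicle arrays lie above all others for 9 genes, while for Col8a1 they overlap the obstruction/Eviprostat arrays and for Col18a1 replicate 2 (0.55) lies below sham/Eviprostat replicate 1 (0.70).

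Among type IV genes, the 2 probes of Col4a1 gave different results, while those of Col4a5 gave 0.18 and 0.25, neither past the threshold. The first probe of Col4a1, its brightest, had 0.06, -0.02 and 0.01 on the obstruction/Eviprostat arrays, 0.05, 0.09 and 0.20 on the obstruction/vehicle arrays, -0.02, -0.16 and -0.09 on the sham/Eviprostat arrays, and 0.07, -0.04 and -0.09 on the sham/vehicle arrays. Its difference between obstruction/vehicle and sham/vehicle was 0.13 ± 0.08 (adjusted p = 0.367). The last probe, at the stop codon, had -0.13, -0.04 and -0.004 on the obstruction/Eviprostat arrays, 1.04, 1.16 and 1.54 on the obstruction/vehicle arrays, 0.02, 0.31 and 0.31 on the sham/Eviprostat arrays, and -0.11, 0.02 and 0.10 on the sham/vehicle arrays. By that probe Col4a1 rose by 1.24 ± 0.13 (2.36-fold, adjusted p = 6.37e-05). It was chosen for the text after its values were seen, and with each gene read by its probe nearest the 3′ end the collagen count was 12 higher and 0 lower. Labelling began at the poly(A) tail with an oligo-dT primer, per the labels' protocols, and the part of the distance from that tail in the gap between both probes was not tested. The other type IV genes were not called: Col4a2 differed by 0.25 ± 0.09 (adjusted p = 0.12), Col4a5 by 0.18 ± 0.16 (adjusted p = 0.542) and Col4a4 by -0.22 ± 0.10 (adjusted p = 0.192).

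Of the other types, Col15a1 and Col18a1, the 2 multiplexins of basement membrane zones, both rose. Col15a1 had -0.31, -0.44 and -0.26 on the obstruction/Eviprostat arrays, 0.90, 1.05 and 1.39 on the obstruction/vehicle arrays, -0.06, 0.41 and 0.36 on the sham/Eviprostat arrays, and -0.75, 0.04 and 0.02 on the sham/vehicle arrays. Its rise was 1.35 ± 0.21 (adjusted p = 0.00116), and the obstruction/Eviprostat arrays lay below 0 on every slide. Col18a1, whose C-terminal end can be released as endostatin, had 0.46, -0.11 and -0.18 on the obstruction/Eviprostat arrays, 1.66, 0.55 and 1.099 on the obstruction/vehicle arrays, 0.70, 0.25 and 0.14 on the sham/Eviprostat arrays, and 0.02, -0.17 and -0.11 on the sham/vehicle arrays. It rose by 1.19 ± 0.25 (adjusted p = 0.00896), with its highest values of every group on slide 1, where sham/Eviprostat exceeded obstruction/vehicle replicate 2, and its other probe, which overlaps the first, rose by 0.76 ± 0.16.

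Type VI collagen, a beaded filament around cells and fibrils, rose by its alpha 1 chain. Col6a1 had 0.25, 0.21 and 0.23 on the obstruction/Eviprostat arrays, 1.05, 1.14 and 1.31 on the obstruction/vehicle arrays, -0.03, 0.19 and 0.30 on the sham/Eviprostat arrays, and -0.08, -0.04 and -0.10 on the sham/vehicle arrays. The difference between obstruction/vehicle and sham/vehicle was 1.24 ± 0.10 (adjusted p = 6.48e-06). Its partner chains differed by 0.62 ± 0.24 for Col6a2 (adjusted p = 0.126) and 0.65 ± 0.26 for Col6a3 (adjusted p = 0.147). Both passed with the slide as a replicate block, at adjusted p = 0.00135 and 0.000364. In that fit Col9a3 passed as well (0.30, adjusted p = 0.0397). Its probe was above background in Cy3 on only 4 arrays. The other Col9a3 probe differed by -0.05 in the fit without the block (adjusted p = 0.859). Col6a1 and Col6a2 lie on chromosome 20 of rn3 with 125814 bases between their probes.

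Col8a1, a chain of the type VIII network found around vessels, had the widest spread among the called genes. It had 0.21, 1.31 and 0.64 on the obstruction/Eviprostat arrays, 1.21, 0.41 and 1.91 on the obstruction/vehicle arrays, -0.05, 0.05 and 0.07 on the sham/Eviprostat arrays, and -0.03, -0.19 and -0.07 on the sham/vehicle arrays. Both obstructed groups lay above both sham groups on every array and overlapped each other. The rise over sham/vehicle was 1.27 ± 0.32 (adjusted p = 0.0233). It lost its call without obstruction/vehicle replicate 1 or 3, or without sham/vehicle replicate 2 or 3, with values of 0.90 to 1.29 and adjusted p of 0.0712 to 0.0903. Col16a1, which sits at fibril surfaces, rose by 1.08 ± 0.10 (adjusted p = 1.86e-05), and by 0.56 ± 0.15 on its other probe (adjusted p = 0.0353). The 11 other genes not called, of which Col6a2 and Col6a3 had the largest differences, ran from -0.27 (Col8a2) to 0.65. Besides those named they were Col7a1 of anchoring fibrils, Col10a1, Col9a1, Col9a2, Col14a1, Col22a1 and Col23a1.

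Eviprostat was then set against vehicle in obstructed rats, to ask whether those transcripts differ with treatment. All 6 chains of types I, III and V were lower in obstruction/Eviprostat, by 2.00-fold for Col5a3 to 5.56-fold for Col1a1. Col6a1, Col15a1, Col16a1 and Col18a1 fell as well, by 1.92- to 2.74-fold, and no collagen gene rose. The count was 10 lower and 0 higher of 30 (limma, adjusted over all probes), against 12.4% of all genes called, 8.06% as lower and 4.37% as higher. At an unadjusted p under 0.05, 11 were lower and 1 higher, against 2229 lower and 1554 higher of all named genes. Both comparisons share the obstruction/vehicle arrays, so their signs are not independent of each other. The median difference was -0.25 (-1.20 fibrillar, -0.17 basement membrane, -0.18 other) and 0.00 over all genes. Array ranges did not overlap for 12 of 30 collagen genes, against 28% of all genes. The scanner software's log ratio gave 13 lower and 3 higher (Col4a4, Col8a2 and Col11a2), and median centring gave 6 lower. Of all 36102 tested probes the scanner software's log ratio called 5702 lower and 7821 higher, and median centring 1197 lower and 132 higher.

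On the arrays listed above, obstruction/Eviprostat lay below obstruction/vehicle by 2.47 for Col1a1 on its brightest probe (-2.47 ± 0.19, adjusted p = 6.33e-06). The stop codon probe gave -1.52 ± 0.14 (adjusted p = 3.05e-05) and the coding probe -1.47 ± 0.31 (adjusted p = 0.0102). Without obstruction/Eviprostat replicate 2 or 3 the coding probe had adjusted p of 0.0537 or 0.0559. Col3a1 fell by 2.05 (-2.05 ± 0.20, adjusted p = 4.04e-05) and Col1a2 by 1.83 (-1.83 ± 0.12, adjusted p = 1.25e-06). In these genes every obstruction/Eviprostat array lay below every obstruction/vehicle array. Col5a1 differed by -1.46 ± 0.30, Col5a2 by -1.41 ± 0.13 and Col5a3 by -0.997 ± 0.24, all past the threshold. Col5a3 no longer passed when replicate 1 or 3 of either group was left out (-0.94 to -0.73, adjusted p 0.0716 to 0.0905). On slide 2 the Col5a3 ratio was 0.38 in obstruction/Eviprostat and 0.47 in obstruction/vehicle, the smallest gap of the 3 slides. With median centring in place of loess Col3a1 differed by -2.12 with adjusted p = 0.0501.

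Outside the fibrillar class the largest drop was that of Col15a1 (-1.45 ± 0.21, adjusted p = 0.000789). Col18a1 differed by -1.05 ± 0.25 (adjusted p = 0.021), and it no longer passed when obstruction/vehicle replicate 1 or 3, or obstruction/Eviprostat replicate 2 or 3, was left out (-1.05 to -0.77, adjusted p 0.0655 to 0.0979). Col6a1 fell by 0.94 (-0.94 ± 0.10, adjusted p = 7.81e-05), with its 3 obstruction/Eviprostat arrays within 0.21 to 0.25. Col16a1 fell by 0.94 on its brightest probe (-0.94 ± 0.10, adjusted p = 7.4e-05). The other Col16a1 probe differed by -0.47 ± 0.15 and did not pass (adjusted p = 0.0791). Under median centring Col6a1 (-1.04), Col15a1 (-1.59) and Col16a1 (-1.03) did not pass in this comparison (adjusted p 0.0954 to 0.232), with differences at least as large as under loess and larger errors. In obstruction/vehicle against sham/vehicle they did not pass either (1.33, 1.45 and 1.16, adjusted p 0.0764 to 0.132). Col8a1 is the called gene of the obstruction comparison that did not pass here (-0.46 ± 0.32, adjusted p = 0.459). With Cy5 alone in place of the ratio, Col8a1 passed as lower (-1.17, limma adjusted p = 0.000305). Its mean Cy5 spot intensity was 511.2, 1262.6 and 1336.5 in obstruction/vehicle and 410.3, 556.7 and 601.9 in obstruction/Eviprostat. Its Cy3 signal was above background on 10 arrays of 12. Whether Col8a1 stays high under Eviprostat is thus not settled.

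The last probe of Col4a1 fell by 1.30 (-1.30 ± 0.13, adjusted p = 5.16e-05), while the first probe differed by -0.10 ± 0.08 (adjusted p = 0.552). With the replicate block Col6a2 (-0.36, adjusted p = 0.0312) and Col6a3 (-0.55, adjusted p = 0.00134) were also lower and Col4a4 higher (0.27, adjusted p = 0.0392). The 20 genes not called ran from -0.55 (Col6a3) to 0.27 (Col4a4).

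**Figure D3:**
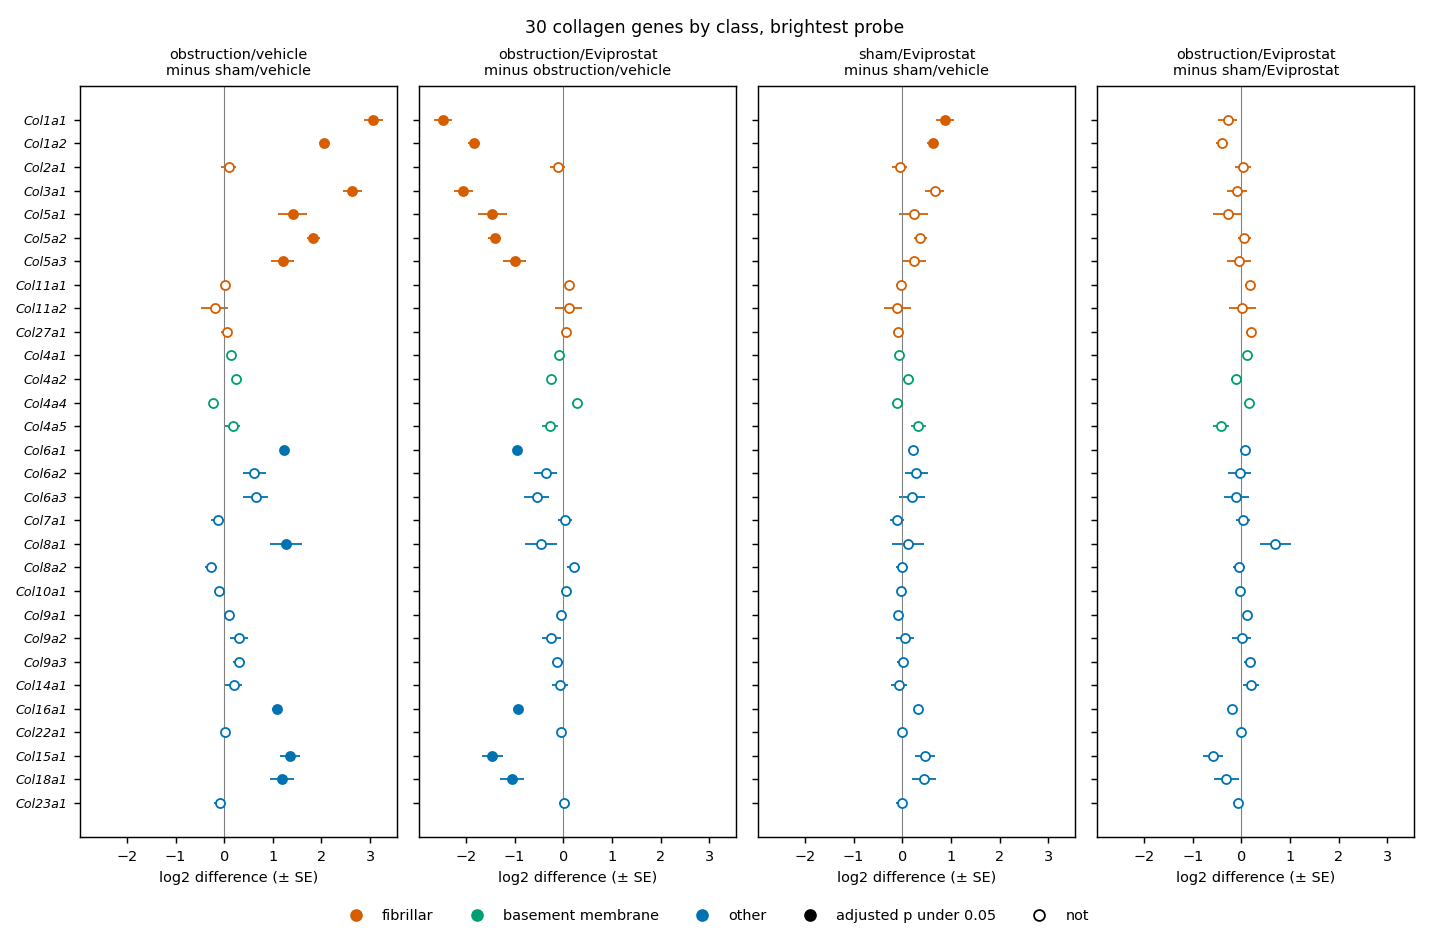
Log2 difference (horizontal axis, bar: SE) for the 30 collagen genes, brightest probe, in 4 comparisons, coloured by class; filled points have an adjusted p under 0.05. Filled points lie right of 0 for 11 genes in obstruction/vehicle minus sham/vehicle, left of 0 for 10 in obstruction/Eviprostat minus obstruction/vehicle, right of 0 for Col1a1 and Col1a2 in sham/Eviprostat minus sham/vehicle, and no point is filled in obstruction/Eviprostat minus sham/Eviprostat.

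In sham rats Eviprostat went with higher type I collagen transcripts: Col1a2 was 1.55-fold higher in sham/Eviprostat (0.63 ± 0.12, adjusted p = 0.0187) and Col1a1, on its brightest probe, 1.83-fold higher (0.87 ± 0.19, adjusted p = 0.0449). The count was 2 higher and 0 lower of 30 collagen genes (7 higher and 0 lower at an unadjusted p under 0.05, against 822 higher and 575 lower of all named genes), against 1.46% of all genes called, 1.21% as higher and 0.248% as lower. Array ranges did not overlap for 7 of 30, against 18.9% of all genes. Col1a1 was not called on its stop codon probe (0.27) or coding probe (0.12), and the other Col1a2 probe had 0.58 ± 0.14 (adjusted p = 0.0632). The Col1a1 call was lost without any 1 of the 6 arrays (0.74 to 0.95, adjusted p 0.102 to 0.17). The Col1a2 call was lost without any of them except sham/Eviprostat replicate 1 (0.58 to 0.65, adjusted p 0.0712 to 0.103). Median centring left no call. With the replicate block 5 genes were higher, among them Col3a1 (0.67, adjusted p = 0.00233), Col5a2 (0.37, adjusted p = 0.0431) and Col16a1 (0.33, adjusted p = 0.0427). Of all 36102 tested probes that fit called 1157 higher and 1122 lower.

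With both operations under Eviprostat, 0 of 30 collagen genes differed between obstruction/Eviprostat and sham/Eviprostat in limma, against 2.5% of all genes called (0.633% higher, 1.86% lower), and at an unadjusted p under 0.05 the counts were 3 lower and 0 higher, against 996 lower and 784 higher of 14537 named genes, so the share of collagens was near that of all genes. The lower 3 were Col1a2 (-0.40 ± 0.12, adjusted p = 0.122), Col15a1 (-0.58 ± 0.21, adjusted p = 0.243) and Col4a5 (-0.42 ± 0.16, adjusted p = 0.261), and each passed with the replicate block, at adjusted p = 0.00831, 0.0243 and 0.0215. Array ranges did not overlap for 6 of 30, against 22.8% of all genes. Col1a1 differed by -0.28 ± 0.19 on its brightest probe and Col3a1 by -0.09 ± 0.20. Col8a1 had the largest difference (0.70 ± 0.32, adjusted p = 0.419), and all its obstruction/Eviprostat arrays lay above its sham/Eviprostat arrays. The scanner software's log ratio called 5 genes lower and 1, Col8a1, higher. Of all 36102 tested probes it called 2241 lower and 2038 higher.

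Whether the Eviprostat difference was itself unequal after obstruction and after sham operation was tested as an interaction. It was negative and past the threshold for 10 of 30 collagen genes, all fibrillar chains of types I, III and V with Col6a1, Col15a1, Col16a1 and Col18a1, and positive for none, against 10.2% of all genes called, 6.89% as lower and 3.33% as higher. These are the genes called between the obstructed groups. That difference is part of the interaction, so the results are not independent. For Col1a1 on its brightest probe the effect was -2.47 in obstructed and 0.87 in sham rats, a difference of -3.35 ± 0.27 (adjusted p = 1.25e-05). With Cy5 alone 12 collagen genes were lower, Col8a1 among them (-1.14, adjusted p = 0.0048). Over all tested probes Cy5 alone called 2396 lower and 1949 higher. The scanner software's log ratio gave 14 lower and 3 higher, and median centring 4 lower. Of all 36102 tested probes the scanner software's log ratio called 5175 lower and 6538 higher, and median centring 910 lower and 107 higher.

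Many transcripts for proteins that hydroxylate, fold, trim and crosslink collagen were called in the same comparisons. Of 29 tested genes of biosynthesis and crosslinking, 13 were higher and 2 lower in obstruction/vehicle against sham/vehicle (median 0.58), against 9.88% and 5.19% of all genes. In obstruction/Eviprostat against obstruction/vehicle 12 were lower and 2 higher (median -0.58), against 8.06% and 4.37% of all genes. Loxl1, a lysyl oxidase that crosslinks fibres, differed by 2.26 ± 0.15 with obstruction and by -1.08 ± 0.15 with Eviprostat in obstructed rats. Serpinh1, the collagen chaperone HSP47, differed by 1.94 ± 0.26 and -1.34 ± 0.26 in the same comparisons. Lox, another lysyl oxidase, differed by 1.85 ± 0.19 and -1.17 ± 0.19, and P4ha1, a prolyl 4-hydroxylase subunit, by 1.68 ± 0.34 and -1.54 ± 0.34. All these passed the threshold. The 2 genes that went the other way, picked after their values were seen, were Adamts3, a procollagen N-proteinase (-0.68 and 0.55), and Ppib, a prolyl isomerase (-0.49 and 0.37). In sham/Eviprostat against sham/vehicle, where 1.46% of all genes were called, 0 of the 29 were. In obstruction/Eviprostat against sham/Eviprostat, Loxl1 was higher (0.68 ± 0.15, adjusted p = 0.0326) and Plod1, a lysyl hydroxylase, was lower (-0.38 ± 0.09, adjusted p = 0.0458).

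Of 9 tested collagen receptors, 2 were higher with obstruction, against 9.88% of all genes: Itga1, an integrin subunit that binds collagen (1.27 ± 0.12), and Cd36 (0.78 ± 0.18). With Eviprostat in obstructed rats, where 8.06% of all genes were lower, Itga1 (-0.94 ± 0.12) and its partner Itgb1 (-0.69 ± 0.11) were lower, and Itgb1 was also lower in obstruction/Eviprostat than in sham/Eviprostat (-0.64 ± 0.11). Of 8 collagen-degrading enzymes, 4 were higher with obstruction (9.88% of all genes) and 5 lower with Eviprostat in obstructed rats (8.06% of all genes). Mmp8, the neutrophil collagenase, differed by 1.95 ± 0.35 and -1.76 ± 0.35, and the gelatinase Mmp9 by 1.93 ± 0.33 and -1.99 ± 0.33. The gelatinase Mmp2 differed by 1.33 ± 0.10 and -1.53 ± 0.10, and cathepsin K (Ctsk) by 1.25 ± 0.21 and -0.79 ± 0.21. Mmp2 was also lower in obstruction/Eviprostat than in sham/Eviprostat (-0.51 ± 0.10, adjusted p = 0.0178).

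Markers of several cell types moved beside the collagens, and in bulk tissue more cells of a type and more RNA per cell cannot be told apart. The mean log2 ratio of the 30 collagen genes ran from 0.07 to 0.13 in obstruction/Eviprostat, 0.49 to 0.75 in obstruction/vehicle, 0.12 to 0.18 in sham/Eviprostat and -0.04 to 0.01 in sham/vehicle. The shares of all genes to set beside the marker counts are 9.88% higher and 5.19% lower with obstruction, 8.06% lower and 4.37% higher with Eviprostat in obstructed rats, and 1.21% higher in sham/Eviprostat against sham/vehicle. Of 8 fibroblast markers 6 were higher in obstruction/vehicle than in sham/vehicle and 4 lower in obstruction/Eviprostat than in obstruction/vehicle. Their mean ran from 0.26 to 0.45 in obstruction/Eviprostat, 0.65 to 1.23 in obstruction/vehicle, 0.27 to 0.48 in sham/Eviprostat and -0.06 to 0.06 in sham/vehicle. Fibroblast markers and collagens thus had the obstruction/vehicle arrays on top, and both sham/Eviprostat and obstruction/Eviprostat above sham/vehicle on every array. The same held for the biosynthesis and crosslinking genes and for the smooth muscle, Schwann cell and seminal vesicle markers. This order is therefore not particular to fibroblast markers.

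Of 7 smooth muscle and myofibroblast markers 6 were higher with obstruction, 5 lower with Eviprostat in obstructed rats, and 3 higher in sham/Eviprostat than in sham/vehicle. Their mean ran from 0.09 to 0.20 in obstruction/Eviprostat, 0.78 to 1.09 in obstruction/vehicle, 0.33 to 0.42 in sham/Eviprostat and -0.21 to -0.13 in sham/vehicle. All 8 macrophage markers were higher with obstruction and 7 lower with Eviprostat in obstructed rats, and 0 differed in sham/Eviprostat against sham/vehicle. Macrophage markers averaged 0.32 to 0.34 in obstruction/Eviprostat, 1.79 to 2.30 in obstruction/vehicle, 0.01 to 0.03 in sham/Eviprostat and 0.003 to 0.05 in sham/vehicle.

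Markers of tissue next to the prostate differed between groups as well. All 5 tested seminal vesicle genes were higher in obstruction/vehicle and also in sham/Eviprostat than in sham/vehicle, and lower in obstruction/Eviprostat than in both. Their mean was 0.67 to 1.08 in obstruction/Eviprostat, 5.56 to 5.96 in obstruction/vehicle, 4.98 to 5.07 in sham/Eviprostat and 0.06 to 0.17 in sham/vehicle. Skeletal muscle markers ran from -0.80 to -0.63 in obstruction/Eviprostat, -1.59 to -1.44 in obstruction/vehicle, 1.26 to 1.48 in sham/Eviprostat and -0.03 to 0.26 in sham/vehicle, with 5 of 6 lower in obstruction/vehicle and 5 of 6 higher in sham/Eviprostat than in sham/vehicle. The seminal vesicle genes were nearly as high in sham/Eviprostat as in obstruction/vehicle. The brightest Col1a1 probe averaged 0.80 ± 0.24 in sham/Eviprostat and 2.99 ± 0.38 in obstruction/vehicle (SD, n = 3 each). Its relation to the seminal vesicle genes was not tested. With obstruction, 2 of 4 urothelial markers were higher, 3 of 8 endothelial markers were higher and 1 lower, 2 of 6 Schwann cell markers were higher, and 1 of 8 prostate secretory markers was higher and 4 lower. With Eviprostat in obstructed rats, 2 of 4 urothelial, 3 of 8 endothelial and 1 of 6 Schwann cell markers were lower, while 4 of 8 prostate secretory markers were higher and 1 lower (median 1.01). The part of these cell types in the collagen differences was not tested.

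**Figure D4:**
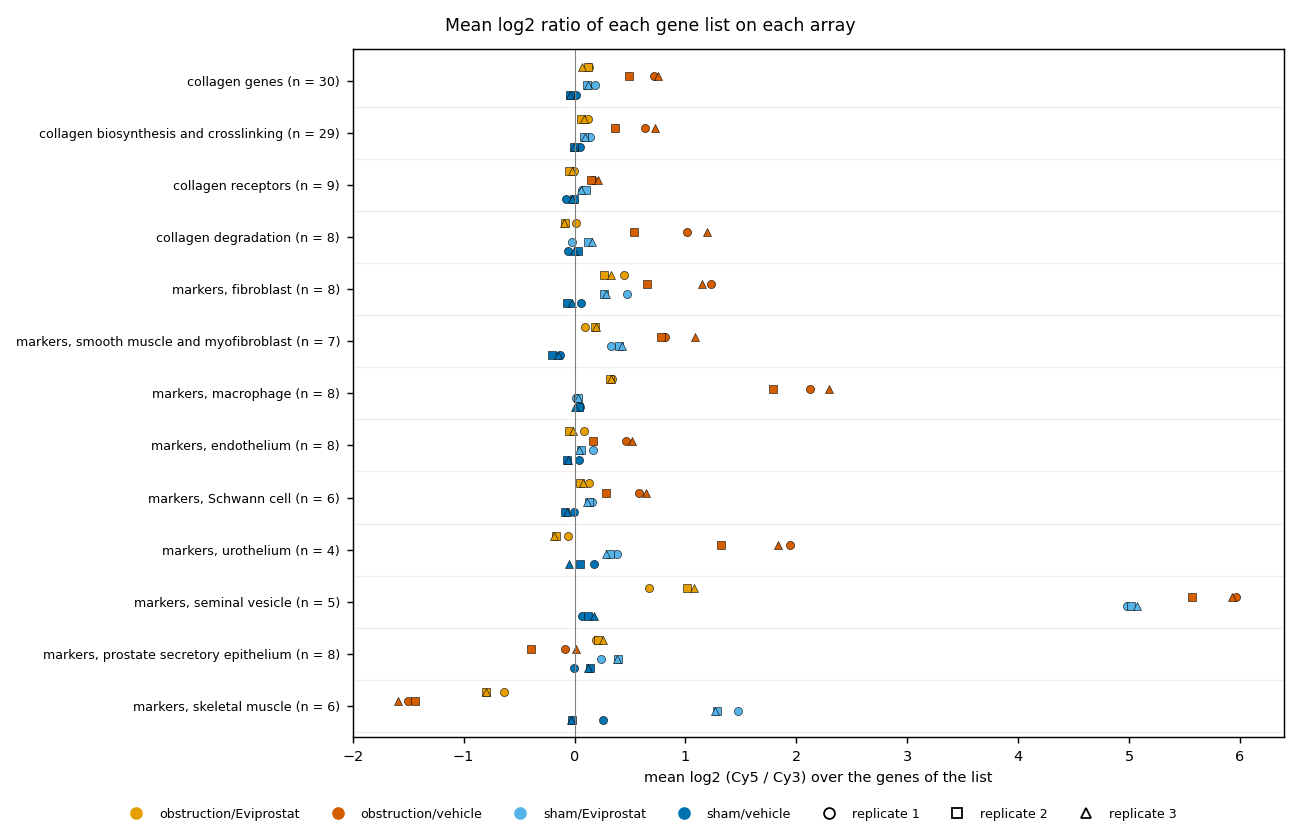
Mean log2 ratio of Cy5 to Cy3 (horizontal axis) over the genes of each list, 1 point per array, coloured by group and shaped by replicate. Collagens, their biosynthesis and fibroblast, smooth muscle and macrophage markers are highest on the obstruction/vehicle arrays, while seminal vesicle genes are near 5 to 6 on both the obstruction/vehicle and the sham/Eviprostat arrays.

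Col4a3bp, the gene whose name alone matches, was called in none of the comparisons. Its brightest probe differed by 0.31 ± 0.17 in obstruction/vehicle against sham/vehicle (adjusted p = 0.296) and by -0.06 ± 0.17 in obstruction/Eviprostat against obstruction/vehicle (adjusted p = 0.881).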

How the data were processed

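The values used are the spot and background intensities of both channels and, for one alternative, the log10 ratio, which the authors deposited. Feature Extraction 9.5.1.1 from Agilent wrote them, as stated in the submitters' processing notes and per the file headers. Per the file headers the deposited processed signals were background-subtracted and dye-normalized, and positions are on build rn3. The deposited table of processed values equals the log10 ratio at every spot (largest difference 0 on all 12 arrays), with medians of 0 except -0.00886, -0.00115 and -0.00348 on obstruction/vehicle replicates 1, 2 and 3. Its scale and direction are thus known.

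From the intensities, background was corrected by normexp (offset 50) and log2 ratios were normalized by loess in limma 3.58.1 (R 4.3.3, statmod 1.5.0, data.table, version 1.17.8; sequences and figures in Python 3.11.15, pandas 2.3.3 and matplotlib 3.10.9). Control and outlier spots had no weight and were left out, and spots of a probe were averaged. One fit of all 12 arrays with 4 group means (8 residual degrees of freedom) gave 5 contrasts, with Benjamini-Hochberg adjustment over 36102 probes and a threshold of 0.05. A gene was read by its brightest tested probe. Genes were named from the array and the rat RefSeq tables of GRCr8: 10735 probes by accession, 5571 by symbol and 3729 by synonym. Arrays per group (3) limit the precision.

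Named in full were every Col1a1 probe and, per class and comparison, up to 3 called genes with the largest difference and one sign on all 3 slides. Other called collagens are named with their difference, and up to 4 genes of each related list. Members and lists were chosen with earlier results of these data known. Replicate number equals slide, and the scan day of slide 1 differed from that of the other slides. Deviations from the group means correlated at 0.155 to 0.779 over the 18 pairs of the same number and at -0.702 to 0.557 over the 36 other pairs. These ranges overlap. Between the obstructed groups replicate 2 reached 0.155 with its own number and 0.332 with another. Pairing by number was thus not clear for every slide, and the slide was tried as a replicate block. The fit alone was tested on simulated data with independent noise on each array. These data held no slide effect, and background correction and loess were not part of that test. Other alternatives were the scanner software's log ratio, median centring, Cy5 alone, filters on dim probes, the mean over a gene's probes, fewer arrays and leaving out each array. The probe nearest the 3′ end was added after seeing the data.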

Additional observations from a re-analysis of the deposited data

Results flagged for a closer look

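For 10 collagen genes the effect of Eviprostat differed between obstructed and sham rats by limma's test of that difference (obstruction/Eviprostat minus obstruction/vehicle, less sham/Eviprostat minus sham/vehicle, log2 on the brightest probe). Among fibrillar chains it was -3.35 for Col1a1, -2.72 for Col3a1, -2.46 for Col1a2, -1.77 for Col5a2, -1.69 for Col5a1 and -1.25 for Col5a3. Among other types it was -1.92 for Col15a1, -1.5 for Col18a1, -1.27 for Col16a1 and -1.17 for Col6a1. In each of these genes the effect was negative in obstructed rats and positive in sham rats, where only Col1a1 and Col1a2 passed the threshold. The sign was the same on all 3 slides for each gene. This test contains the difference between the obstructed groups and shares its arrays, so it is not separate evidence. Adjusted p ran from 3.29e-06 (Col1a2) to 0.0423 (Col5a3). Under median centring 6 of these genes lost the call (adjusted p 0.061 to 0.341). They were Col1a2, Col3a1, Col5a2, Col6a1, Col15a1 and Col16a1. Of the 10 genes only Col1a1 kept its call under every alternative, while its stop codon and coding probes each lost it under some. The call was lost without 1 array in 10 of 12 cases for Col5a3 (-1.37 to -0.98, adjusted p 0.0565 to 0.106), in 8 for Col5a1 (-1.78 to -1.42, adjusted p 0.0509 to 0.0832) and in 4 for Col18a1 (-1.49 to -1.38, adjusted p 0.0582 to 0.0673).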

How the results depend on the processing

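No collagen result that passed the threshold changed sign under any alternative run. With the scanner software's log ratio the count of called collagen genes was 17 in obstruction/vehicle against sham/vehicle, 16 in obstruction/Eviprostat against obstruction/vehicle, 7 in sham/Eviprostat against sham/vehicle, 6 in obstruction/Eviprostat against sham/Eviprostat and 17 for the difference between the effects of Eviprostat. Many of all 36102 tested probes were called too: in the same order 5930 higher and 8553 lower, 7821 and 5702, 1771 and 1652, 2038 and 2241, 6538 and 5175. Median centring gave 6 between the obstructed groups, 0 between the sham groups and 4 for that difference. With the replicate block the count was 5 in sham/Eviprostat against sham/vehicle and 3 in obstruction/Eviprostat against sham/Eviprostat, and 14, 13 and 14 in the other comparisons. The block ended no call. Over all tested probes it called 1157 higher and 1122 lower, then 1599 and 1557. In the other comparisons these were 4815 and 4310, 4119 and 4372, and 3808 and 4114. In that fit the difference between effects also passed for Col4a5, Col6a2 and Col6a3 (lower) and Col4a4 (higher), and the block changed no other call. In sham/Eviprostat against sham/vehicle, Cy5 alone and the mean over a gene's probes gave 1 each. In obstruction/Eviprostat against sham/Eviprostat, Cy5 alone gave 1 and slides 2 and 3 alone gave 2. Leaving out 1 array gave 9 to 15, 8 to 10, 0 to 1, 0 to 0 and 7 to 11 calls in these 5 comparisons. The causes of these changes were not tested. Of 2780 single-probe values under alternatives, 2616 kept direction and side of the threshold, 87 lost a call and 77 gained one. The dimmer slide 1 and 3 arrays per group limit what the arrays can show.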
